A study of Brassica napus with 11 samples.

Results

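This report describes the cortex of the canola funiculus set against the whole funiculus (WF). The funiculus is the stalk that joins the seed to the silique. All material came from Brassica napus cultivar Topaz, line DH4079, without any treatment or genetic alteration, and was taken 7 days after pollination, when the embryo is at the globular stage. Tissue was cut from paraffin sections by laser microdissection, and RNA was amplified before RNA-seq. The comparison used cortex libraries 1 and 2 and WF libraries 1 and 3. The remaining WF library was left out, as in the study, where it stood apart from the other samples. A transcript was tested where its mean reached 1 FPKM (fragments per kilobase of transcript, scaled to the mapped fragments of the library) in either group, which held for 41281 of the 97902 transcripts in the table. The series holds 11 libraries. The 3 epidermis and 3 vasculature libraries entered the estimate of the spread and a second contrast described near the end. They also entered some group means, the fragment numbers and the study's tissue-enriched lists that are used below.

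The cortex is the parenchyma that fills the funiculus between the single-layered epidermis and the central vascular strand. In ground tissue of this kind, cells enlarge by taking water into the vacuole through aquaporins while enzymes and structural proteins loosen and rebuild the wall, and gibberellin promotes this growth. The vascular strand carries sucrose to the seed in its phloem and water in its lignified xylem. The WF libraries contain the cortex itself together with epidermis and vasculature, so the contrast sets a tissue against an organ that includes it. A lower value in one group can come from fewer cells of a type or from less RNA per cell, and bulk libraries cannot tell these apart.

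The 4 libraries differed in depth. From the step size of low FPKM values, cortex 1 and cortex 2 held 0.376 and 0.739 times the fragments of WF 3, and WF 1 held 0.759 times. The cortex libraries were also less alike than the WF libraries. In 23.6% of the tested transcripts the 2 cortex libraries lay over 1 log2 unit apart, against 13.4% for the WF libraries. Pearson's r across transcripts on the log2(FPKM + 1) scale was 0.78 between the cortex libraries and 0.83 between the WF libraries. Transcripts of 1 library share its depth and amplification, so these are descriptions only. RNA integrity in the study's records was alike in cortex 1 and WF 1, lower in cortex 2 and higher in WF 3. By the study's methods each library was a biological replicate that pooled dissected pieces from several plants, so p-values here measure the spread between such pools. The labels do not say whether pools shared plants.

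The labels were set beside marker transcripts of the other tissues. These were reached through the study's tissue-enriched lists, which were chosen by their level against these same cortex libraries. Their levels in cortex are therefore not an independent check of the labels. The 10 phloem marker transcripts summed to 21.0 and 34.9 FPKM in cortex, against 374 and 323 FPKM in WF, and all 10 were below both WF libraries in both cortex libraries. The 8 xylem marker transcripts summed to 3.44 and 11.5 FPKM in cortex, against 32.6 and 52.7 FPKM in WF, and 3 of them were listed at 0 in both cortex libraries, whereas none was in WF. Epidermal markers were not reduced in the same way. The 7 epidermal marker transcripts summed to 226 and 710 FPKM in cortex, against 453 and 411 FPKM in WF. By this sum cortex 2 stood above both WF libraries and cortex 1 below both. Most of each sum came from LTP2 (BnaAnng27610D), at 158 and 605 FPKM in cortex, against 334 and 335 FPKM in WF. Of the 7, 2 had both cortex libraries below both WF libraries and none had both above. No marker of cortex or of the other tissues that was independent of these libraries was at hand. The 5 transcripts used for cortex, the tonoplast aquaporin TIP1;1 and 4 extensin-like copies, summed to 2429 and 2784 FPKM in cortex, against 551 and 864 FPKM in WF.

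At the adjusted threshold more transcripts were called lower in cortex than higher, though not in every fit given below. With limma on log2(FPKM + 1), 61 transcripts were higher in cortex and 591 lower at a Benjamini-Hochberg adjusted p under 0.05, which is 0.148% and 1.43% of those tested. At an unadjusted p under 0.05 there were 1853 higher and 2900 lower. The transcripts that rose differed by 1.504 to 4.08 on the log2 scale, with a median of 2.06, and those that fell had a median of -2.57 and reached -6.90. The median over all tested transcripts was 0.02, with 21244 differences positive and 20037 negative. Every called transcript had groups that did not overlap, but this alone is common: both cortex libraries were above both WF libraries in 21.1% of all tested transcripts and below both in 20.3%.

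These counts rest on the spread shared over the 4 groups of 10 libraries. In a limma fit of the 4 cortex and WF libraries alone, 0 transcripts rose and 5 fell, with 1744 higher and 2442 lower at an unadjusted p under 0.05. With WF library 2 added to the 10, limma called 0 in either direction, with 1840 higher and 1395 lower at an unadjusted p under 0.05. Single libraries also moved the counts. Each fit without 1 library left 1 library in a group, so the spread of that group was not measured and came from the other groups. Counts from such fits show dependence on a library, not the strength of a call. Without cortex 1, 370 transcripts rose and 300 fell, of which 21 and 252 were among the original 61 and 591. Without cortex 2, 239 rose and 472 fell, of which 19 and 346 were shared. Without WF 1, 36 rose and 625 fell, with 18 and 308 shared, and without WF 3, 17 rose and 261 fell, with 7 and 144 shared. Of the 62 named transcripts called in either direction, 31 stayed called without cortex 1, 38 without cortex 2, 37 without WF 1 and 19 without WF 3, and none changed sign. The calls below are therefore given with each library's value.

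**Figure D1:**
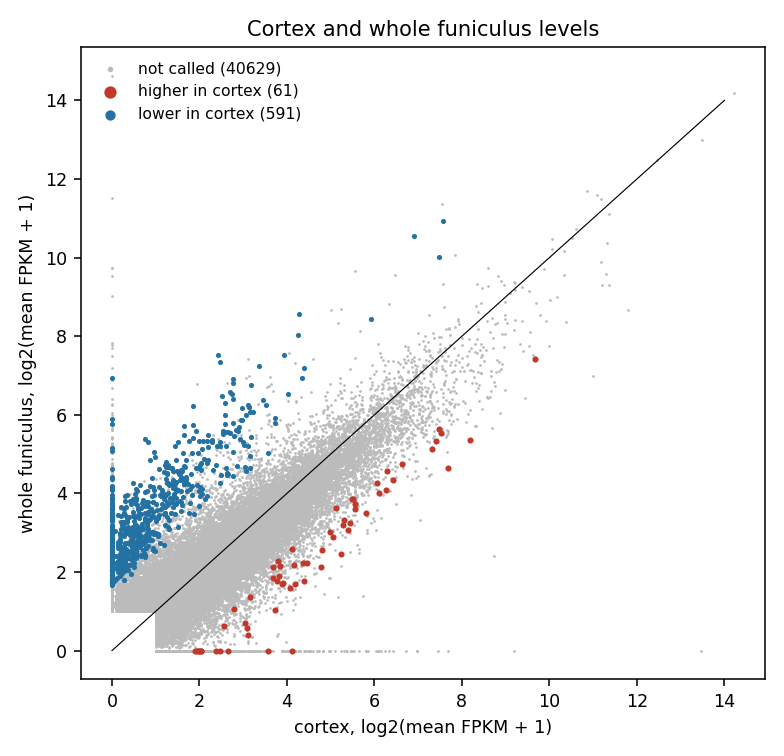
Mean level of 41281 transcripts in cortex (x axis) and whole funiculus (y axis), both as log2(mean FPKM + 1), with the diagonal marking equal levels. The 61 transcripts called higher in cortex (red) lie below the diagonal and the 591 called lower (blue) above it, many of them near 0 in cortex.

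Among the described transcripts that rose in cortex were homologs of a gibberellin-induced gene and of an extensin-like gene. BnaA01g31950D, a homolog of GASA6, which encodes a small cysteine-rich peptide induced by gibberellin, had 124 and 283 FPKM in cortex, against 28.2 and 20.1 FPKM in WF. Both cortex libraries stood above both WF libraries, and the limma log2 difference was 2.92 ± 0.52 (SE, adjusted p = 0.0242). It was not called without cortex 2, WF 1 or WF 3. BnaC08g15350D, one of 4 copies of an extensin-like gene, had 875 and 758 FPKM in cortex, against 147 and 194 FPKM in WF. It rose by 2.26 ± 0.47 (SE, limma adjusted p = 0.048) and was the most abundant transcript among the 61, but it was not called when any 1 of the 4 libraries was left out. The other 3 copies also had both cortex libraries above both WF libraries but did not pass the test. BnaA06g38220D had 819 and 947 FPKM in cortex, against 293 and 450.2 FPKM in WF. BnaA08g24920D had 224 and 712 FPKM in cortex, against 41.4 and 89.6 FPKM in WF. BnaC05g49400D had 459.9 and 332 FPKM in cortex, against 55.2 and 118 FPKM in WF. The 4 log2 differences ran between 1.28 and 2.69. Copies of 1 gene may share reads, so how reads were split among them is uncertain.

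The list of extensin-like and wall growth genes held 14 tested transcripts, of which 2 rose, none fell and 11 had a positive difference, with a median log2 difference of 1.76. The second that rose was BnaC02g04510D of the Ole e 1 and extensin family, a family of secreted proteins, with 66.3 and 64.8 FPKM in cortex, against 19.2 and 17.3 FPKM in WF (log2 difference 1.79 ± 0.29, SE, limma adjusted p = 0.0175). It was not called without WF 3. Its 2 libraries in each group were close to each other. Its related copy BnaA02g01430D had 90.2 and 76.6 FPKM in cortex, against 23.5 and 24.0 FPKM in WF, and missed the threshold (limma adjusted p = 0.0589). The members of this list and of the other function lists joined by Arabidopsis gene were all reached through the study's tissue-enriched lists. Those lists were chosen with these cortex libraries and those of epidermis and vasculature, so the direction of a list is not independent evidence. All 53 transcripts of the study's cortex list had a positive difference from WF, 11 rose by limma and the median was 1.77. Leaving out 1 library left 2 to 3 of the 11 calls, with 3 without cortex 1, cortex 2 or WF 1 and 2 without WF 3.

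The tested copies of a gibberellin biosynthesis gene did not pass the test. GA3OX1 encodes gibberellin 3-oxidase, which makes bioactive gibberellins. Its copy BnaA06g10250D had 55.7 and 64.7 FPKM in cortex, against 30.7 and 6.28 FPKM in WF. The copy BnaC05g11920D had 4.86 and 14.2 FPKM in cortex, against 30.3 and 27.5 FPKM in WF. The first was above WF in both cortex libraries and the second below, with log2 differences of 2.01 ± 0.69 and -1.66 ± 0.53 (SE), neither called (limma adjusted p = 0.262 and 0.219). The difference between the copies was not tested. In the other tissues the second copy averaged 55.0 FPKM in vasculature and 4.59 FPKM in epidermis, while the first averaged 4.96 and 8.20 FPKM.

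A pair of aspartyl proteases and 1 protein of the lipid transfer superfamily rose in cortex. BnaA07g20200D, an aspartyl protease homolog, had 76.8 and 76.7 FPKM in cortex, against 24.3 and 21.3 FPKM in WF (log2 difference 1.71 ± 0.28, SE, limma adjusted p = 0.0167). BnaA08g26170D, a second one, had 38.8 and 25.2 FPKM in cortex, against 2.79 and 9.91 FPKM in WF (2.33 ± 0.49, SE, limma adjusted p = 0.049). These were the 2 of 13 extracellular protease transcripts that rose, and 1 rose in each fit that left out a library. BnaA07g20200D was not called without WF 3, and BnaA08g26170D not without cortex 1, cortex 2 or WF 1. None of the 13 fell, 8 had a positive difference and the median was 1.40. BnaA01g18740D, of the lipid transfer protein superfamily, had 51.2 and 22.2 FPKM in cortex, against 2.85 and 6.05 FPKM in WF (2.74 ± 0.53, SE, limma adjusted p = 0.0346), and was not called without cortex 1, WF 1 or WF 3. Among 11 listed lipid transfer proteins, which carry lipids outside the cell, none rose and 1 fell, while 7 had a positive difference and the median was 1.96. The most abundant, BnaC02g38640D, had 1412 and 2659 FPKM in cortex, against 149 and 105 FPKM in WF. It was 16.1 times higher by the means, yet its spread across groups left it short of the threshold (log2 difference 3.95 ± 0.97, SE, limma adjusted p = 0.0943). The 1 that fell, BnaC04g53090D, had 0 and 3.98 FPKM in cortex, against 18.3 and 13.1 FPKM in WF.

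Water and solute transport transcripts had differences of both signs, but no aquaporin was called lower. BnaAnng24130D, a homolog of TIP1;1, a water channel of the vacuole membrane, had 52.3 and 35.2 FPKM in cortex, against 14.3 and 12.5 FPKM in WF. It rose by 1.61 ± 0.31 (SE, limma adjusted p = 0.0346) and was the only one of 8 aquaporin transcripts to pass the test, which it did not without cortex 1, WF 1 or WF 3. The plasma membrane aquaporin PIP2;2 (BnaC04g08090D) had 67.0 and 111 FPKM in cortex, against 14.4 and 9.96 FPKM in WF (limma adjusted p = 0.0627). Others lay on the opposite side: the boric acid channel NIP6;1 (BnaC06g40240D) had 0 and 26.1 FPKM in cortex, against 22.8 and 23.2 FPKM in WF, so its cortex libraries disagreed. Over the 8 aquaporins, 4 differences were positive and 4 negative. The median was -0.65 over all 8, and 0.43 in the fit without cortex 1, so the sign of the median depended on that library. BnaC02g14920D, a homolog of the ABC transporter ABCG8, had 75.7 and 75.6 FPKM in cortex, against 11.97 and 20.2 FPKM in WF (2.21 ± 0.36, SE, limma adjusted p = 0.0175), and was called without WF 3 but not without cortex 1, cortex 2 or WF 1. Its list of cortex transport and nitrogen metabolism had 1 of 9 rise and 2 fall, against 0 and 1 without cortex 1 or without cortex 2, 0 and 2 without WF 1, and 1 and 1 without WF 3.

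The 2 that fell were copies of 1 gene, and another copy of it was on the cortex side. The tyrosine transaminase homologs BnaAnng35150D and BnaAnng37050D had 2.03 and 1.03 FPKM and 2.07 and 1.40 FPKM in cortex, against 13.7 and 22.1 FPKM and 8.90 and 22.3 FPKM in WF. Both fell, by 2.90 and 2.48 on the log2 scale (limma adjusted p = 0.00634 and 0.0266). Their homolog BnaC01g15060D had 365 and 172 FPKM in cortex, against 148 and 82.7 FPKM in WF, and did not pass the test (log2 difference 1.17, limma adjusted p = 0.542). As with GA3OX1, copies of 1 Arabidopsis gene had opposite signs, and the difference between copies was not tested. Of the falls, that of BnaAnng35150D was called in each fit that left out 1 library, and that of BnaAnng37050D only in the fit without WF 1.

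Peptide and receptor genes taken from the study's cortex list were all on the cortex side, without any single call. In that list all 53 transcripts had a positive difference, and 48 had both cortex libraries above both WF libraries. The shared sign of its members is therefore not independent evidence. All 9 tested members of that list had both cortex libraries above both WF libraries and differences of 1.12 to 1.84, with a median of 1.43, and none passed limma's adjusted threshold. PSK4 encodes the precursor of phytosulfokine, a sulfated peptide that promotes cell expansion. Its copy BnaC01g26290D had 147 and 123 FPKM in cortex, against 46.0 and 52.5 FPKM in WF, and its copy BnaA01g20950D had 94.0 and 80.2 FPKM in cortex, against 22.7 and 27.5 FPKM in WF. BES1 (BnaC08g36760D), a transcription factor of brassinosteroid signalling, had 40.9 and 78.8 FPKM in cortex, against 16.5 and 39.7 FPKM in WF. Limma gave these 3 transcripts adjusted p-values of 0.2, 0.321 and 0.534 in that order.

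Descriptions were at hand for the study's tissue lists and for a stretch of chromosomes A01 and A02, in all for 2384 of the tested transcripts and 13 of the 61 that rose. The others described included BnaA01g25860D, of the NPH3 family that takes part in phototropism in Arabidopsis, with 15.6 and 8.72 FPKM in cortex, against 1.09 and 0.992 FPKM in WF (2.64 ± 0.37, SE, limma adjusted p = 0.00841). BnaC03g34970D, a WD40-repeat protein, had 18.4 and 14.5 FPKM in cortex, against 5.16 and 4.86 FPKM in WF. The proteins of unknown function BnaC01g20640D and BnaC03g76520D had 40.6 and 35.8 FPKM and 17.1 and 22.1 FPKM in cortex, against 10.2 and 7.89 FPKM and 2.52 and 4.87 FPKM in WF. Among transcripts with no description, BnaC05g34180D had 236 and 347 FPKM in cortex, against 29.6 and 50.7 FPKM in WF. BnaA01g25860D was not called without WF 3, and the other 4 were not called when any 1 of the 4 libraries was left out.

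The largest differences on the cortex side rested on very few fragments. BnaA03g54560D had 12.9 and 19.6 FPKM in cortex and was listed at 0 in both WF libraries and in all epidermis and vasculature libraries (log2 difference 4.08, limma adjusted p = 0.00207). Its cortex values stand in the ratio that 1 and 3 fragments would give at the depths of these libraries. BnaC01g25890D, with 14.3 and 7.26 FPKM in cortex and 0 elsewhere, has the ratio of 1 and 1 fragment. In all, 7 of the 61 were listed at 0 in every other library of the fit, and the smallest whole numbers of fragments that fit them summed to 2 to 4 over both cortex libraries. Such whole numbers, found within 0.01 of a fragment for low values, could be given for 57 of the 61, with a median of 165 fragments over both cortex libraries. Over 10 fragments were found for 47. For GASA6 they were 148 and 667 in cortex, against 68 and 64 in WF, and for TIP1;1 they were 96 and 127 in cortex, against 53 and 61 in WF. Multi-mapped reads can count as part of a fragment, so these are estimates.

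**Figure D2:**
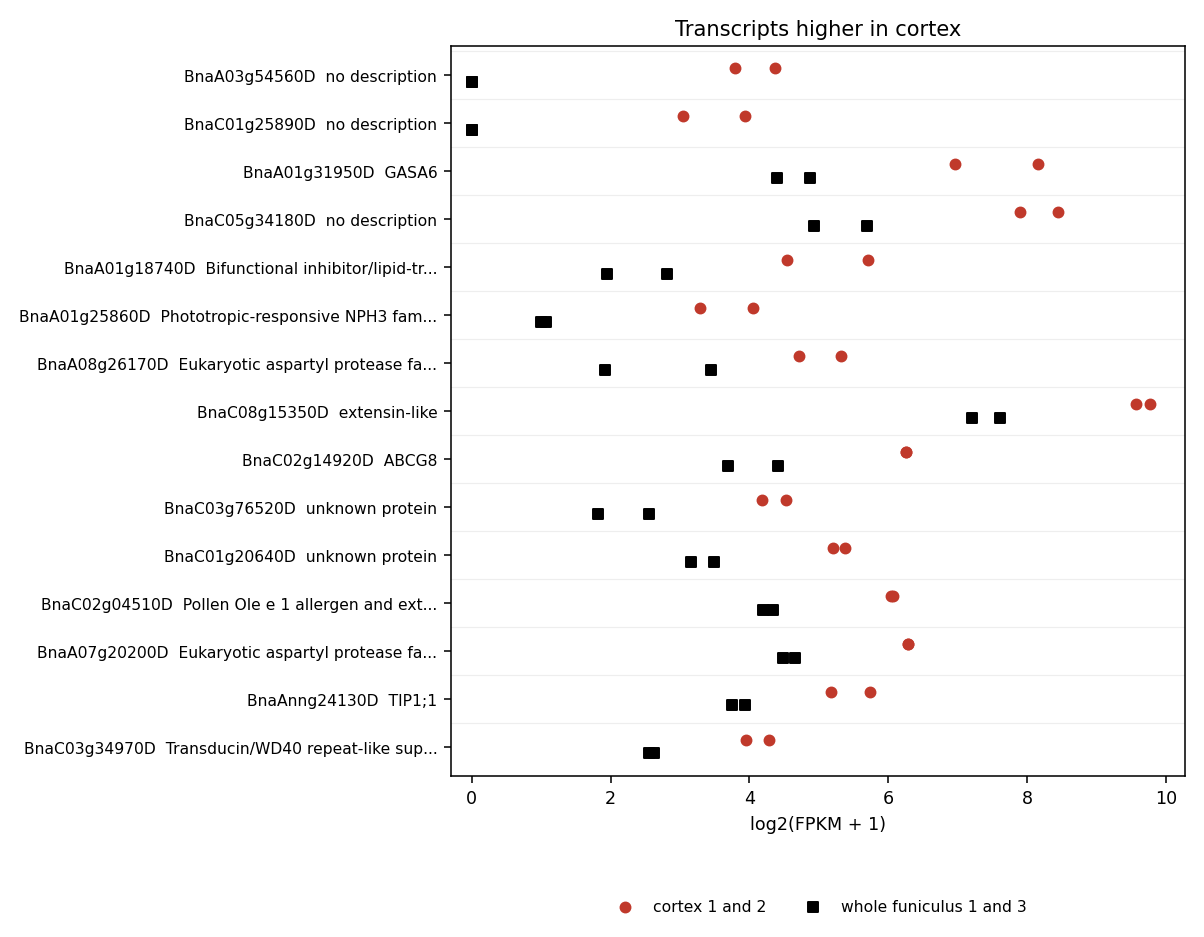
Values of the 15 named transcripts with the largest rise in cortex, in each library, on the log2(FPKM + 1) scale, with cortex 1 and 2 as circles above and whole funiculus 1 and 3 as squares below. The groups do not overlap in any row, and the first pair is listed at 0 in both whole funiculus libraries.

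Phloem transcripts gave the most calls of any function list among those that fell. Of 23 tested phloem transcripts, 14 fell, none rose, and all 23 had both cortex libraries below both WF libraries, with a median log2 difference of -2.64. Over all tested transcripts 1.43% fell and 20.3% lay below both WF libraries. In the study's vasculature list 622 of 623 tested transcripts had a negative difference, 577 lay below both and 197 fell. The phloem, xylem, myrosinase, metallothionein, patterning, division and SUMO lists were reached through the study's tissue-enriched lists. Their shared direction is therefore not independent evidence. PP2-A1 (BnaA01g34970D), a lectin of the sieve element and companion cell complex, had 15.1 and 21.2 FPKM in cortex, against 281 and 242 FPKM in WF (-3.79 ± 0.49, SE, limma adjusted p = 0.00687). APL (BnaA07g34920D), a transcription factor needed for phloem identity, had 0.675 and 1.20 FPKM in cortex, against 13.7 and 18.5 FPKM in WF (-3.14 ± 0.34, SE, limma adjusted p = 0.00369). The proton pump AHA3, which drives phloem loading, fell in both leading copies. BnaA02g08160D had 4.51 and 4.59 FPKM in cortex, against 43.4 and 33.9 FPKM in WF, and BnaC02g11560D had 2.05 and 4.30 FPKM in cortex, against 38.2 and 30.2 FPKM in WF. The sucrose carrier SUC2 (BnaC05g17970D) had 1.16 and 5.42 FPKM in cortex, against 36.6 and 19.9 FPKM in WF (limma adjusted p = 0.025). Leaving out WF 3 reduced the phloem calls to 5 and leaving out cortex 1 to 7, and the negative sign held for all 23 in both fits. APL and both AHA3 copies stayed called whichever library was left out, PP2-A1 did not without WF 3, and SUC2 did not without cortex 1, WF 1 or WF 3.

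Other phloem genes had the same pattern at lower levels. SUS5 (BnaCnng74430D), a sieve-element sucrose synthase, was listed at 0 in both cortex libraries, against 5.51 and 16.7 FPKM in WF. NAKR1 (BnaCnng03380D), a phloem metal-binding protein, had 1.32 and 5.69 FPKM in cortex, against 28.2 and 51.1 FPKM in WF. CALS7 (BnaC08g44800D), the callose synthase of sieve plates, had 0.863 and 0.658 FPKM in cortex, against 3.88 and 6.88 FPKM in WF, and SEOA (BnaA05g33720D), a structural protein of sieve elements, had 0.902 and 1.99 FPKM in cortex, against 8.41 and 15.9 FPKM in WF. All 4 fell, with limma adjusted p-values between 0.0141 and 0.0355. Each of these calls was lost without cortex 1 and without WF 3. Those of SUS5 and CALS7 were also lost without cortex 2, and that of NAKR1 without WF 1. Cortex 2 was the higher of the cortex libraries in NAKR1 and SEOA, and cortex 1 in CALS7.

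Xylem and secondary wall genes also lay lower in cortex. Of 22 tested transcripts, 7 fell, none rose and all 22 had a negative difference, with a median of -1.75. In the fit without WF 3, none of the 21 tested was called, and without cortex 1 the count was 4 of 22, with 1 difference positive. LAC17 (BnaA02g06580D), a lignin-polymerising laccase, had 0 and 2.80 FPKM in cortex, against 10.6 and 14.8 FPKM in WF (-2.80 ± 0.54, SE, limma adjusted p = 0.0317). ACL5 (BnaC02g08800D), a thermospermine synthase that acts in developing xylem, had 1.04 and 3.36 FPKM in cortex, against 15.7 and 22.9 FPKM in WF (-2.74 ± 0.42, SE, limma adjusted p = 0.0133). MYB46 (BnaA10g30020D), a master regulator of secondary walls, was listed at 0 in both cortex libraries, against 2.88 and 3.28 FPKM in WF (limma adjusted p = 0.0175). The cellulose synthase IRX3 (BnaA03g06610D) had 0.928 and 1.21 FPKM in cortex, against 3.74 and 5.43 FPKM in WF, and missed the threshold (limma adjusted p = 0.0606).

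The myrosinase system, which releases toxic products from glucosinolates, gave the most negative list median, -3.79 over 14 transcripts. All 14 were below WF in both cortex libraries and 5 fell. No call was left without cortex 1 or WF 3, and 1 without cortex 2 or WF 1, while all 14 differences stayed negative. The epithiospecifier protein ESP (BnaC07g17990D), which diverts glucosinolate breakdown to nitriles, had 16.9 and 19.97 FPKM in cortex, against 189 and 569.5 FPKM in WF (-4.09 ± 0.83, SE, limma adjusted p = 0.0413). Copies of the myrosinase TGG1 had like patterns. BnaC02g40420D had 2.23 and 3.02 FPKM in cortex, against 44.4 and 102 FPKM in WF (-4.25 ± 0.72, SE, limma adjusted p = 0.0196). BnaC02g40120D had 5.92 and 5.02 FPKM in cortex, against 50.8 and 139 FPKM in WF, and BnaC02g40130D had 3.24 and 6.78 FPKM in cortex, against 39.3 and 85.7 FPKM in WF. In each of these 4 transcripts WF 3 was over 2 times WF 1. Copies of 1 gene may share reads, which was not measured here, so the separate values of the TGG1 copies are uncertain.

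Metallothioneins, small metal-binding proteins, were the most abundant of the lists in WF. The 7 transcripts summed to 564 and 1149 FPKM in cortex, against 6294 and 5515 FPKM in WF. All 7 differences were negative, and only MT2A (BnaA10g27170D) passed the test, with 95.2 and 143 FPKM in cortex, against 1484 and 1526 FPKM in WF (-3.67 ± 0.66, SE, limma adjusted p = 0.025). The MT2B copy BnaC03g00710D had 189 and 183 FPKM in cortex, against 2839 and 2447 FPKM in WF (limma adjusted p = 0.0591). MT2A was not called when any 1 of the 4 libraries was left out. The most abundant described transcript among the 591, which was picked out after its values were seen, was BnaC06g27090D, a homolog of TSF, a phloem-mobile protein of the family that promotes flowering. It had 96.7 and 278 FPKM in cortex, against 1698 and 2181 FPKM in WF (-3.54 ± 0.60, SE, limma adjusted p = 0.0189).

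Regulators of vascular patterning were low in both groups and lower in cortex. All 11 had both cortex libraries below both WF libraries, 2 fell and the median was -1.47. Without cortex 1, WF 1 or WF 3, 1 of them was called. SHP2, a MADS-box gene of fruit and ovule development, had 1.03 and 1.74 FPKM in cortex for the copy BnaA05g02990D, against 18.3 and 18.3 FPKM in WF (-3.03 ± 0.38, SE, limma adjusted p = 0.00556). Its copy BnaC04g52620D had 2.30 and 3.90 FPKM in cortex, against 23.6 and 37.5 FPKM in WF, and missed the threshold (limma adjusted p = 0.0673). AGL8 (BnaCnng52780D) fell too, but its 2.66 and 2.02 FPKM in WF have the ratio of 1 and 1 fragment. PHB (BnaA04g20300D), a leaf and vascular polarity factor, had 0.79 and 1.04 FPKM in cortex, against 4.15 and 4.45 FPKM in WF (limma adjusted p = 0.0605).

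Of 37 DNA replication and division transcripts, 1 fell and none rose, although all 37 had a negative difference, with a median of -1.16, and 30 had both cortex libraries below both WF libraries. With WF library 2 in the fit, 10 of 36 were positive and the median was -0.43. The single one that fell was KNOLLE (BnaA08g26870D), the syntaxin of the cell plate, which was listed at 0 in both cortex libraries, against 2.42 and 3.88 FPKM in WF (limma adjusted p = 0.0187). It was not called without WF 3. The histone H2A transcript BnaC02g39800D had 20.3 and 39.5 FPKM in cortex, against 73.2 and 53.4 FPKM in WF. All 6 transcripts of SUMO conjugation, which attaches a small ubiquitin-like protein to targets, had a negative difference, none was called and the median was -0.87. With WF library 2 in the fit the SUMO median was 0.50, so its sign turned there.

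Among all named transcripts that fell, the largest difference was that of CXXS1 (BnaC08g42020D), a thioredoxin-related protein, which was listed at 0 in both cortex libraries, against 95.8 and 145 FPKM in WF (-6.90 ± 0.72, SE, limma adjusted p = 0.00323). The WF values have the ratio of 2 and 4 fragments, so this high FPKM comes from few fragments. The same held for BnaAnng27000D, of a family of unknown function, with 22.0 and 25.0 FPKM in WF from 2 and 3 fragments. More deeply covered was BnaC04g30420D, which has no description, listed at 0 in both cortex libraries, against 57.8 and 58.1 FPKM in WF from 68 and 90 fragments. BnaA03g44490D, also without description, had 4.37 and 4.44 FPKM in cortex, against 221 and 148 FPKM in WF. CXXS1 and BnaC04g30420D were both among the 5 calls of the fit of the 4 libraries alone.

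Other described transcripts with large falls had their highest group mean in vasculature. TRAF-like proteins, which carry a protein-binding domain, appeared more than once: BnaC04g43390D had 5.14 and 6.53 FPKM in cortex, against 130.2 and 107 FPKM in WF, and BnaA05g18690D had 8.74 and 9.68 FPKM in cortex, against 122 and 178 FPKM in WF. A phosphoglucan, water dikinase homolog of starch metabolism, BnaC01g41540D, had 2.69 and 1.60 FPKM in cortex, against 34.8 and 67.5 FPKM in WF. The homeodomain-like BnaA01g30340D had 2.22 and 9.27 FPKM in cortex, against 85.1 and 99.0 FPKM in WF. These 4 fell by 3.86 to 4.13 on the log2 scale, with limma adjusted p-values between 0.0055 and 0.0134, and none was called without WF 3. They averaged 192, 222, 65.8 and 142 FPKM in vasculature in the order given, and at most 1.74 FPKM in epidermis. The first 3 are on the study's vasculature list, so their direction is not independent of these libraries. Fragment numbers could be given for 586 of the 591, with a median of 102.5 over both WF libraries, and 548 had over 10. The 15 that were listed at 0 in the other 8 libraries had 2 to 5.

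**Figure D3:**
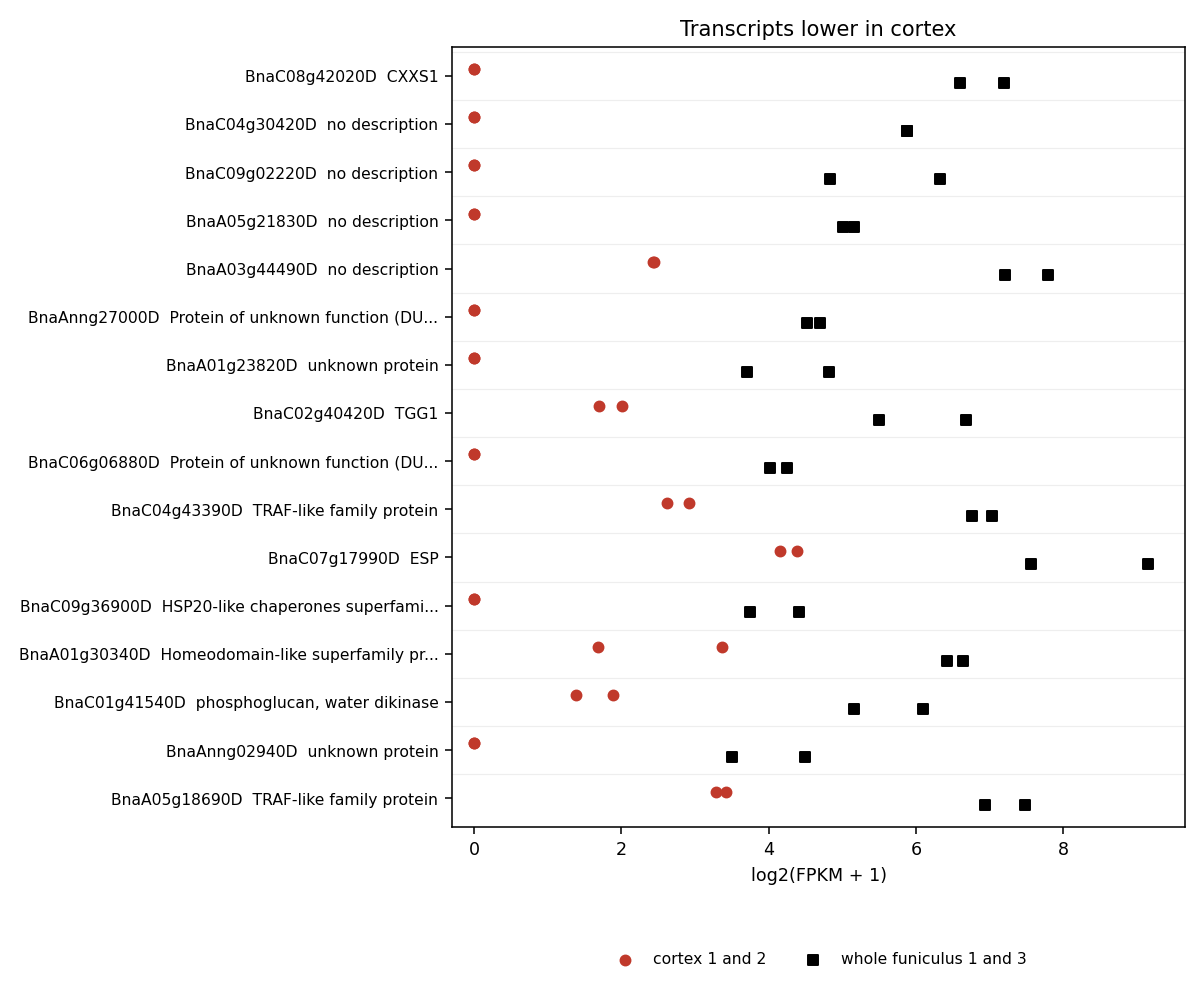
Values of the named transcripts with the largest fall in cortex, in each library, on the log2(FPKM + 1) scale, with cortex 1 and 2 as circles above and whole funiculus 1 and 3 as squares below. In every row both cortex libraries lie below both whole funiculus libraries, and in several both cortex libraries are listed at 0.

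Epidermal genes gave no calls between cortex and WF. Of 15 tested transcripts of cuticle and epidermal identity, none rose or fell by limma's adjusted p, 14 had a negative difference and the median was -0.49. With WF library 2 in the fit, 9 of the 15 were positive and the median was 0.08, so its sign turned. The 2 cortex libraries stood far apart in these genes. The 7 epidermal wall modification transcripts all had a negative difference, with a median of -0.77 and no call (3 of 7 were positive with WF library 2), and so did the 5 auxin transport transcripts, with a median of -1.04. LTP2 (BnaAnng27610D), a lipid transfer protein of the epidermis, had 158 and 605 FPKM in cortex, against 334 and 335 FPKM in WF. PEL3 (BnaC02g41520D), an acyltransferase of cutin formation, had 52.2 and 88.1 FPKM in cortex, against 92.8 and 54.2 FPKM in WF. One transcript of the study's epidermis list fell, BnaA01g23820D of unknown function, listed at 0 in both cortex libraries, against 12.01 and 27.3 FPKM in WF, and these values have the ratio of 1 and 3 fragments. Of 15 tested pollen and pollen tube transcripts none was called. The 25 in that list summed to 35.6 and 26.4 FPKM in cortex, against 110.0 and 2.55 FPKM in WF, so WF 1 alone carried them in the WF group. The part of pollen transcripts in any call was not tested.

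Housekeeping functions were covered by lists drawn by description from 1999 detected transcripts in genome order, on chromosome A01 and the start of A02, which were not chosen for a tissue. Of 1777 tested, 4 rose and 25 fell, with a median of 0.03, and 407 had both cortex libraries above both WF libraries. Over all tested transcripts 0.148% rose, 1.43% fell and 21.1% lay above both WF libraries in this way. All 11 photosynthesis transcripts had a positive difference, with a median of 0.96, and 9 had both cortex libraries above both WF libraries, but none passed the test. The photosystem II subunit transcript BnaA01g19750D had 42.5 and 79.2 FPKM in cortex, against 24.6 and 19.6 FPKM in WF (limma adjusted p = 0.29). Ribosomal protein transcripts had a positive difference in 29 of 35, with a median of 0.46, and none was called. Heat shock proteins and chaperones centred on -0.03 over 19, transporters on -0.03 over 30, and transcription factors on -0.08 over 75, of which 2 fell. These were BnaA01g07690D of the bHLH family, with 2.17 and 3.94 FPKM in cortex, against 16.7 and 17.4 FPKM in WF, and BnaA02g01290D, a second MYB46 copy.

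**Figure D4:**
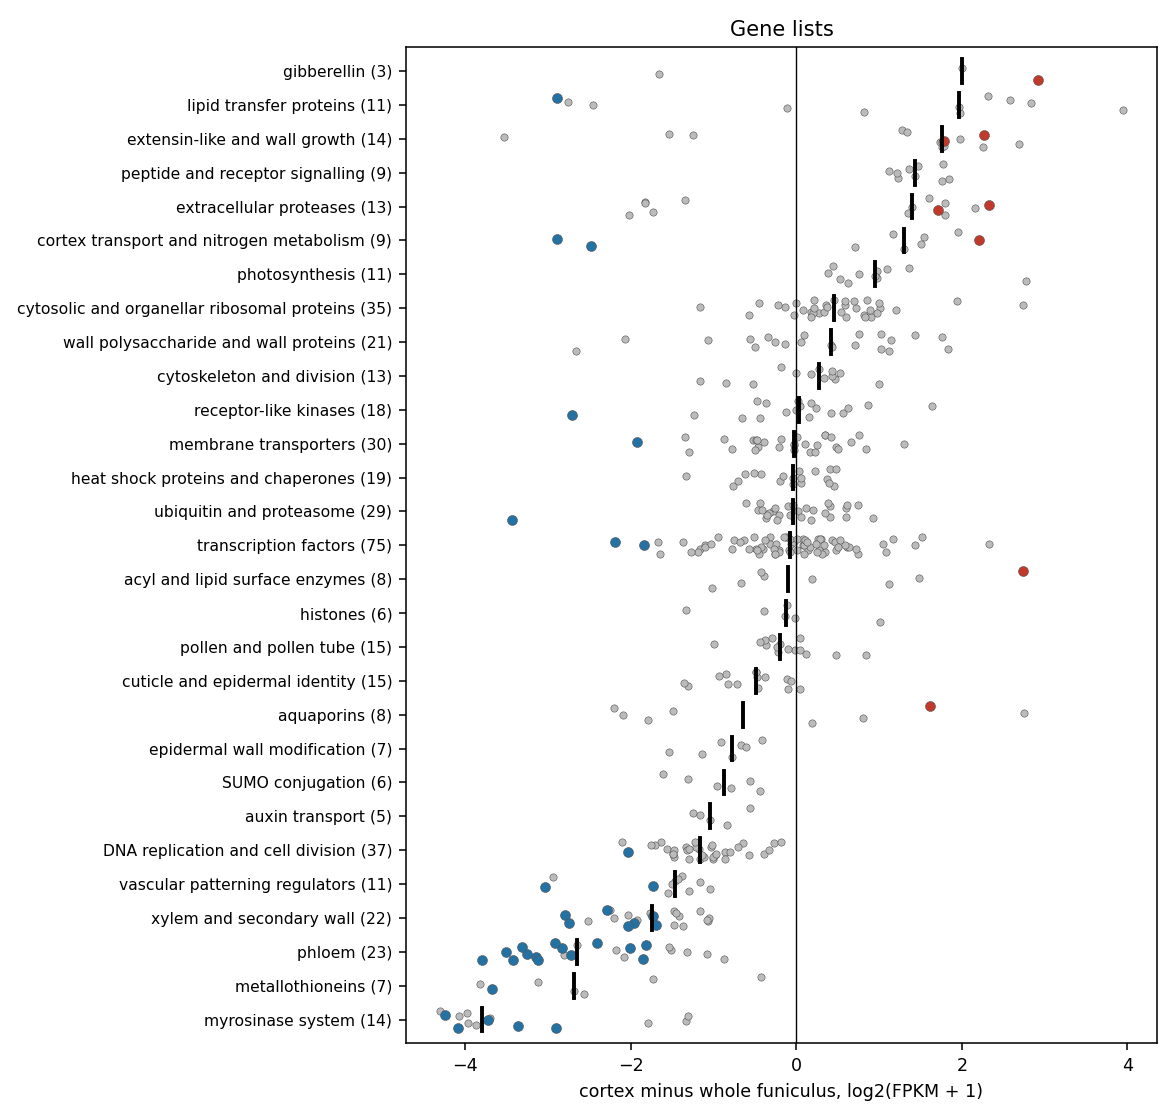
Difference of each tested transcript, cortex minus whole funiculus on the log2(FPKM + 1) scale, by list, with the number of transcripts in brackets and a black bar at the median. Red points are called higher in cortex, blue points lower, and grey points are not called. Gibberellin has the highest median (2.01 over 3 transcripts) and the myrosinase system the lowest (-3.79 over 14).

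The transcripts called in this contrast were then looked up in vasculature against epidermis, which shares no library with it, although the spread was estimated over the same fit. Across all tested transcripts, 9.88% were higher in vasculature and 7.24% higher in epidermis. Of the 591 that fell in cortex, 568 were higher in vasculature and 4 higher in epidermis, with a median log2 difference of 3.79. Of the 61 that rose in cortex, 2 were higher in vasculature and 39 higher in epidermis, with a median of -1.45. GASA6, for example, averaged 2.49 FPKM in vasculature and 21.2 FPKM in epidermis, whereas TIP1;1 was an exception with 5.37 FPKM in vasculature and 2.40 FPKM in epidermis. Of the 61, 58 had their highest of the 4 group means in cortex and 3 in epidermis. The 61 were called for a cortex level above WF, so this is largely set by the choice. The same share over all tested transcripts was not counted. The epidermal markers summed to 226 and 710 FPKM in cortex, against 453 and 411 FPKM in WF. This sum, most of it from LTP2, was above WF in cortex 2 only. The part of epidermal transcripts in the 61 was not tested.

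**Figure D5:**
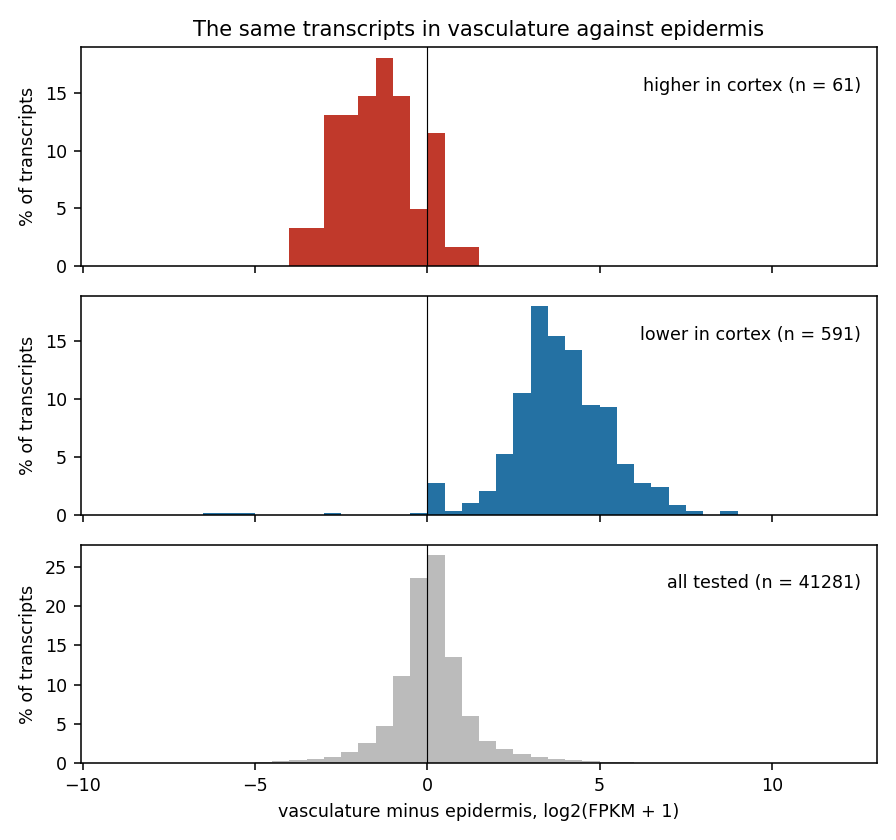
Share of transcripts (%) by their difference in vasculature minus epidermis on the log2(FPKM + 1) scale, for the 61 transcripts higher in cortex, the 591 lower in cortex and all 41281 tested. The medians are -1.45, 3.79 and 0.05.

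The transcripts that fell were called for a WF level above cortex, so a high WF mean among them is partly set by the choice. For 53 of the 591 the WF mean was above the means of all 3 dissected tissues, a share not counted over all tested transcripts. The 53 included ESP, with 189 and 569.5 FPKM in WF and a mean of 274 FPKM in vasculature and 17.0 FPKM in epidermis. Among them were also the TGG1 copies BnaC02g40420D and BnaC02g40120D, which averaged 58.1 and 91.8 FPKM in vasculature. In WF 1 and WF 3 BnaC02g40420D had 44.4 and 102 FPKM, and BnaC02g40120D had 50.8 and 139 FPKM. For ESP and both TGG1 copies WF 1 was below the vasculature mean and only WF 3 above it. The 53 also included the 15 transcripts listed at 0 in every library of the dissected tissues. BnaC05g17490D, chosen after its values were seen, had 23.1 and 17.5 FPKM in WF and 0 in cortex, epidermis and vasculature. Its WF values have the ratio of 1 and 1 fragment, so they come from very few fragments. The 4 that fell in cortex and were higher in epidermis than vasculature included BnaCnng10710D, also chosen after its values were seen, with 5.59 and 8.52 FPKM in cortex, against 40.3 and 33.0 FPKM in WF.

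The calls came from both subgenomes. Of the 61 transcripts that rose, 29 were from the A and 30 from the C subgenome, and of the 591 that fell, 285 and 305. Among all tested transcripts 19274 were from A and 21643 from C.

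By detection alone, 36537 transcripts had a mean of at least 1 FPKM in cortex and 37978 in WF, and 33234 in both. There were 3303 transcripts detected in cortex with a mean under 1 FPKM in WF, and 4744 detected in WF with a mean under 1 FPKM in cortex. Most of them lay near the limit, with 2207 of the 3303 and 2906 of the 4744 under 2 FPKM, and only 15 and 376 were called. With the stricter condition that both libraries of 1 group reach 1 FPKM and neither of the other does, 681 and 1818 remained. Of the 4744 detected in WF but not in cortex, 3490 had a mean of at least 1 FPKM in vasculature and 1714 in epidermis. Of the 3303 detected in cortex but not in WF, 1089 had such a mean in vasculature and 1565 in epidermis. At these depths an absence under 1 FPKM in WF does not show that a transcript was missing from it.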

How the data were processed

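FPKM values were deposited by the authors as 1 table, with 1 column per library and no counts. They aligned reads with TopHat2 2.0.13 and made FPKM with Cufflinks 2.2.1. The annotation version is not given in the sources used here. Most aligned reads mapped to several places in these libraries, which bears on gene copies. Values were analysed as log2(FPKM + 1), which understates changes of low transcripts, with limma 3.58.1 in R 4.3.3 (lmFit, eBayes with a variance trend) over 10 libraries as 4 group means with 6 residual degrees of freedom, two-sided, with Benjamini-Hochberg adjustment over 41281 transcripts. The method was tested on simulated data. Members, lists and the rule for naming were chosen with earlier results of these data known: per direction the 12 described and 5 of any kind with the largest called difference and at least 10 FPKM, up to 4 per list, and transcripts the paper names. Descriptions and Arabidopsis matches came from the study's supplementary lists. Fold changes and tests of the authors were not used. Relative depth came from values under 1.5 FPKM. Fragments were the smallest whole numbers whose ratios gave a transcript's values over the 10 libraries. Figures used Python 3.11.15 and matplotlib 3.10.9.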

Additional observations from a re-analysis of the deposited data

How the results depend on the processing

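The counts of 61 transcripts higher and 591 lower in cortex depended on how the spread was estimated. Counts higher and lower were 0 and 5 with the 4 libraries alone, 0 and 0 with whole funiculus 2 added, 40 and 575 at a pseudocount of 0.5 FPKM, and 12 and 341 at 0.1 FPKM. With a replicate block they were 7 and 216. Same-numbered libraries showed little shared deviation (r between -0.11 and 0.22 over 12 pairs, 1 of them over 0.1). Of 10 libraries, 3 were most like their own number. In a group of 2 libraries the deviations mirror each other, so these values cannot tell whether same-numbered pools shared plants. An alternative chosen after seeing the data, which kept transcripts above 0 in all 4 libraries, gave 38 and 302. Leaving out 1 library gave 17 to 370 higher and 261 to 625 lower. A minimum mean of 5 FPKM, no filter, no variance trend and median-ratio rescaling each left both counts within 1.5 times of the main ones. The transcripts called were not all the same. Of the main 61 and 591, 41 and 407 stayed called at a minimum of 5 FPKM, and 27 and 384 with no filter. With no variance trend 56 and 585 stayed, and with median-ratio rescaling 54 and 591. Vasculature against epidermis gave 1432 and 911 with whole funiculus 2 and 2092 and 1979 at a minimum of 5 FPKM, against 4078 and 2989. Transcripts detected in cortex and not whole funiculus numbered 227 at a mean of at least 5 FPKM, 681 when both libraries had to agree, and 2910 to 4084 without 1 library. Those detected in whole funiculus and not cortex numbered 509, 1818 and 4543 to 6187, and 17365 with whole funiculus 2. Of the 62 named transcripts that were called, none changed sign in any fit run. The shallow cortex 1 library limits what low transcripts can show.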
